A study of Mus musculus with 42 samples.

Results

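De novo lipogenesis, the making of fatty acids from carbohydrate carbon, was followed through 10 genes in the livers of lean and obese mice with and without the receptor ChemR23. The members and the pathway lists below were taken by name, with earlier results of these data known. Their counts beside shares of all genes are therefore descriptions. The members were the enzymes Acly, Acaca, Acacb, Fasn and Me1, the regulators Srebf1, Mlxipl and Thrsp, and Pnpla3 and Gpam. The products of Pnpla3 and Gpam act where new fatty acids are built into glycerolipids. All 10 were listed and tested in each of the 6 comparisons, out of 19754 gene names listed in any table.

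The liver makes fatty acids in the cytosol. Acly encodes ATP citrate lyase, which splits citrate that has left the mitochondria into acetyl-CoA. Acaca and Acacb encode the acetyl-CoA carboxylases, the cytosolic form whose malonyl-CoA feeds synthesis and the form at the mitochondrial surface whose malonyl-CoA restrains fatty acid oxidation. Fasn encodes fatty acid synthase, which builds palmitate, and Me1 encodes malic enzyme, a source of the NADPH that synthesis consumes. Srebf1 encodes SREBP-1, which carries the insulin signal to these genes, and Mlxipl encodes ChREBP, which carries the carbohydrate signal. Thrsp encodes Spot 14, a small protein that promotes lipogenesis. Pnpla3 encodes a lipid droplet protein induced on refeeding, and Gpam encodes the mitochondrial glycerol-3-phosphate acyltransferase that starts glycerolipid synthesis.

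Liver total RNA was sequenced from 42 male C57BL/6J mice, 7 in each of 6 groups and 1 library per mouse. The WT lean and KO lean groups ate a diet with 10% of its energy as fat, and the 4 obese groups ate a high fat diet with 60%. Both diets began at 6 weeks of age and lasted 15 weeks. The KO mice lacked ChemR23 in the whole body after CRISPR/Cas9 editing, and WT mice were littermates. WT obese+RvE1 mice and KO obese+RvE1 mice received 300 ng of resolvin E1 (RvE1), a lipid mediator that binds ChemR23, by intraperitoneal injection on 4 consecutive days, and all other mice received the ethanol and PBS vehicle. Livers were taken on day 5 after a fast of at least 4 hours. Values are normalized counts, reads per gene divided by a library factor set separately in each of 6 tables of 14 libraries, so groups were compared within a table only. WT obese and KO obese mice each stand in 3 tables, and WT lean and KO lean mice each in 2, so comparisons that share a group are not independent.

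Between 15992525 and 43841120 reads per library fell on the listed genes. Cmklr1, which encodes ChemR23, separated the genotypes, with 9.72 to 22.6 normalized counts in KO lean against 40.8 to 114 in WT lean and 5.08 to 23.2 in KO obese against 33.3 to 102 in WT obese. The 7 hepatocyte markers tested summed to between 1133530 and 2226190 normalized counts in a mouse across all tables, and none was called in any comparison. The mouse identifiers open with a number that the labels do not explain, and mice that share it resembled each other. It is nested within groups, except that number 23 opens identifiers in both KO obese and KO obese+RvE1.

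Upstream sequence is shown for 4 members, Fasn and Acly as enzymes whose levels moved together from mouse to mouse, and Srebf1 and Mlxipl as the transcription factors of the set. Each run is the 250 bases before a transcription start in RefSeq (GRCm38.p6, the build of the files' mm10), written 5′ to 3′ on the strand of the gene. Capitals mark 4 motifs searched on both strands, the sterol element TCACNCCAC, the E-box CACGTG, the CCAAT box CCAAT and the GC box GGGCGG. None of the runs overlaps an annotated GENCODE exon.
Fasn, chr11:120824548-120824797, minus strand: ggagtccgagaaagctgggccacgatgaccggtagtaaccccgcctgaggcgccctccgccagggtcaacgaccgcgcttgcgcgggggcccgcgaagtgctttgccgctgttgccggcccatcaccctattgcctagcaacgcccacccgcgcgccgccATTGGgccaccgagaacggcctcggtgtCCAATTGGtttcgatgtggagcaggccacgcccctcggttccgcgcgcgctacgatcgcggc
Acly, chr11:100528001-100528250, minus strand: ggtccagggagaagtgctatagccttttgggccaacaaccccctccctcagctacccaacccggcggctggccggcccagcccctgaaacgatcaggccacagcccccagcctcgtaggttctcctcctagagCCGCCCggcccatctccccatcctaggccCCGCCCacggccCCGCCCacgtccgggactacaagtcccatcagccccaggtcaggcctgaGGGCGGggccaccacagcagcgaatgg
Srebf1, chr11:60210472-60210721, minus strand, the start farthest into the gene of 3 listed: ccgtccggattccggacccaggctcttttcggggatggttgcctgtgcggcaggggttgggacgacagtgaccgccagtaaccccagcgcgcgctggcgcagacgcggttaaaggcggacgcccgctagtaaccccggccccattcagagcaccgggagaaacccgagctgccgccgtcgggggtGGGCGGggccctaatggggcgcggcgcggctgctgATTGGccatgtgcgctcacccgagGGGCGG
Mlxipl, chr5:135089640-135089889, plus strand: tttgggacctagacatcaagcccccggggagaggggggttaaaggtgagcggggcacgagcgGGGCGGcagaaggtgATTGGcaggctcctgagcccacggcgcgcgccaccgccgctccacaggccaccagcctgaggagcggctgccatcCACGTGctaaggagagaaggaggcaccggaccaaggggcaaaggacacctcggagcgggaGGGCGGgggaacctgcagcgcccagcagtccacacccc

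RefSeq gave 15 such windows for the 10 members. A CCAAT box was found in 9 of the 15 windows, against 33.8% of all 32851 windows of this length, and a GC box in 7, against 32.7%. The Fasn window held 3 CCAAT boxes, 2 of them overlapping on opposite strands as CCAATTGG, and the Acly window held 4 GC boxes. The E-box, found in 6.02% of all windows, was in 1 member window, that of Mlxipl shown above. The sterol element, found in 1.05%, was in 1, at a second Mlxipl start inside the gene. The Thrsp window held CCAAT boxes starting 79 and 52 bases before the RefSeq start. It is not printed because 180 of its bases lie in the annotated GENCODE exon. The Acaca window, at a start inside the gene, held none of the 4 motifs. A match describes these letters and is not evidence of binding.

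Per kb of exon, Thrsp was the most abundant member in every group and Pnpla3 the least. In WT lean livers Thrsp had 2025 ± 945 normalized counts per kb (SD, n = 7), Mlxipl 952 ± 236, Me1 748 ± 184, Acly 638 ± 213, Fasn 571 ± 187, Srebf1 441 ± 184, Acacb 391 ± 207 and Gpam 377 ± 51.1. Acaca followed at 130 ± 37.1 and Pnpla3 at 51.4 ± 40.3. From Mlxipl to Gpam, neighboring means lay within 1 SD of the higher gene. In WT obese livers, on their own scale, Thrsp stood at 11798 ± 7496 per kb, ahead of Mlxipl at 1086 ± 396 and Srebf1 at 952 ± 343, and Pnpla3 at 16.8 ± 9.94.

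**Figure D1:**
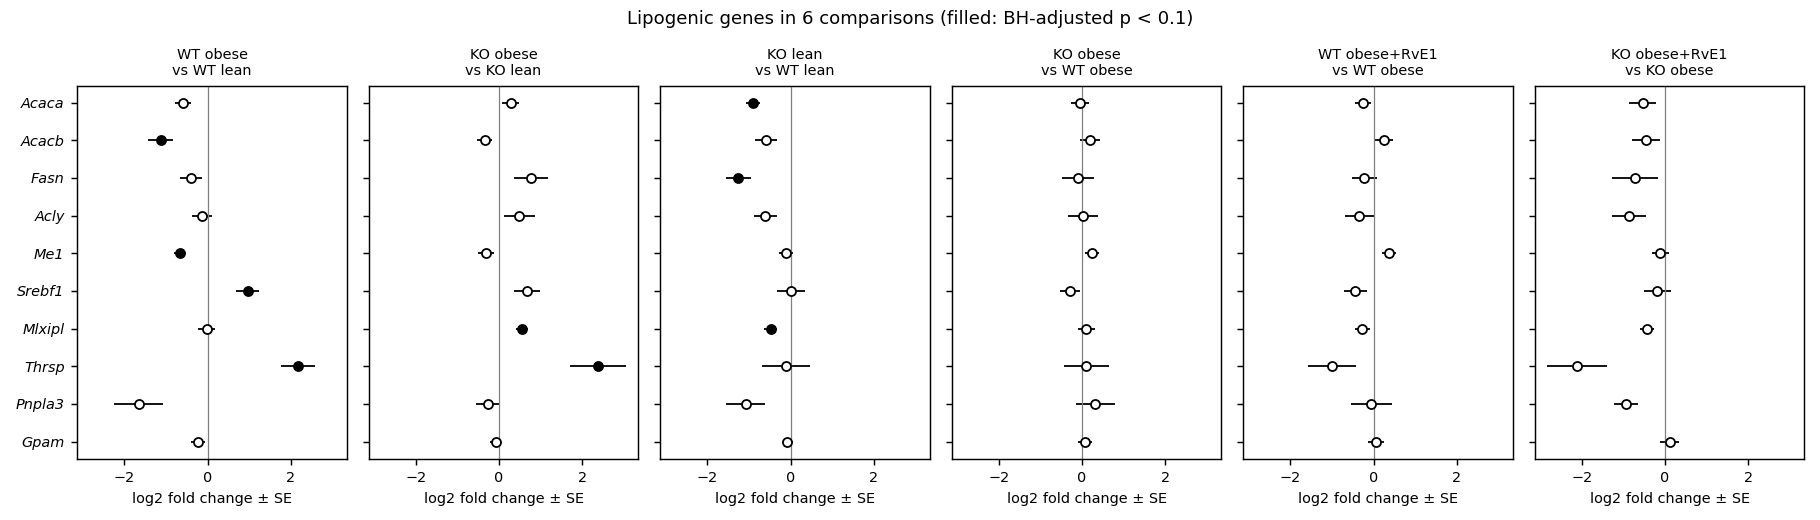
Log2 fold change (x axis) of each of the 10 genes (y axis) in the 6 comparisons, 7 against 7 mice, with bars of 1 SE; filled points have a BH-adjusted p-value under 0.1. Filled points stand at 2.17 and 2.38 for Thrsp with diet and at -0.91 and -1.25 for Acaca and Fasn in lean KO mice, and the 3 panels of obese mice on one diet hold none.

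The first question was how the high fat diet altered these genes in WT mice. Thrsp and Srebf1 were higher in WT obese than in WT lean livers while Me1 and Acacb were lower, so the regulators and the enzymes did not move one way. Of the 10 members 2 rose, against 3.65% of 14012 genes tested, and 2 fell, against 2.61%. A total of 8 members had a negative Log2FC, and the median over the 10 was -0.31 against 0.00 over all genes. Calls were made with limma at a BH-adjusted p-value under 0.1 over all genes tested, on log2(normalized count + 1), a scale that understates the change of low genes.

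Thrsp ranged in WT lean mice from 2507 to 7905 normalized counts with a median of 3319, and in WT obese mice from 5390.4 to 43202 with a median of 22691. Of the 7 obese mice, 6 stood above every lean mouse. The Log2FC was 2.17 ± 0.41 (SE), a 4.51-fold difference, with an adjusted p of 0.00792 by limma. Srebf1 ranged from 1383 to 3674 (median 2014) in lean and from 2670.3 to 6489.7 (median 4117) in obese mice. The groups overlapped, with 4 obese mice above all lean ones. Its Log2FC was 0.96 ± 0.27 (limma adjusted p = 0.0628).

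Me1 was the member whose groups did not overlap. The share of all genes without overlap is not given, so this describes Me1 only. Lean mice held 2011 to 3882 (median 2403) normalized counts and obese mice 1235 to 2003 (median 1811). The Log2FC was -0.66 ± 0.15 (limma adjusted p = 0.0230). Acacb ranged from 1652 to 7403 (median 3483) in lean and from 825 to 2120.35 (median 1721) in obese mice. Of the obese mice, 3 lay below all lean ones, and 1 lean mouse, 21L, stood above the rest at 7403. Its Log2FC was -1.12 ± 0.30 (limma adjusted p = 0.0509).

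The Thrsp and Me1 calls held when any single mouse was left out. Acacb stood at an adjusted p of 0.112 without WT obese 6RL, and Srebf1 passed 0.1, reaching 0.124 at most, without WT lean 21L, 21R or 26L or WT obese 27-2R or 27RL. Me1 stood at 0.150 when libraries were scaled to equal totals. With a random block for the identifier number Thrsp stood at 0.0163, Me1 at 0.0953, Srebf1 at 0.161 and Acacb at 0.200. Without the 3 mice of number 27 none of these 4 was called, with Thrsp at 0.103 and Me1 at 0.112, and Acaca was, at 0.0899.

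The other members did not pass the test. Acaca, the isozyme that supplies synthesis, had a Log2FC of -0.58 ± 0.19 (limma adjusted p = 0.117), with medians of 2249 in lean and 1312 in obese mice. Pnpla3 was the lowest member and the most variable, from 11.9 to 185 in lean and from 2.40 to 41.8 in obese mice, with a Log2FC of -1.65 ± 0.59 (limma adjusted p = 0.140). Pnpla3 was called lower by edgeR and DESeq2, and Acaca by DESeq2 and with library weights. All told edgeR called 3 members lower, against 2.69% of genes, and DESeq2 4, against 4.35%. Fasn at -0.40 ± 0.26, Acly at -0.13 ± 0.24, Gpam at -0.22 ± 0.17 and Mlxipl at -0.02 ± 0.20 had limma adjusted p-values from 0.445 to 0.971.

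**Figure D2:**
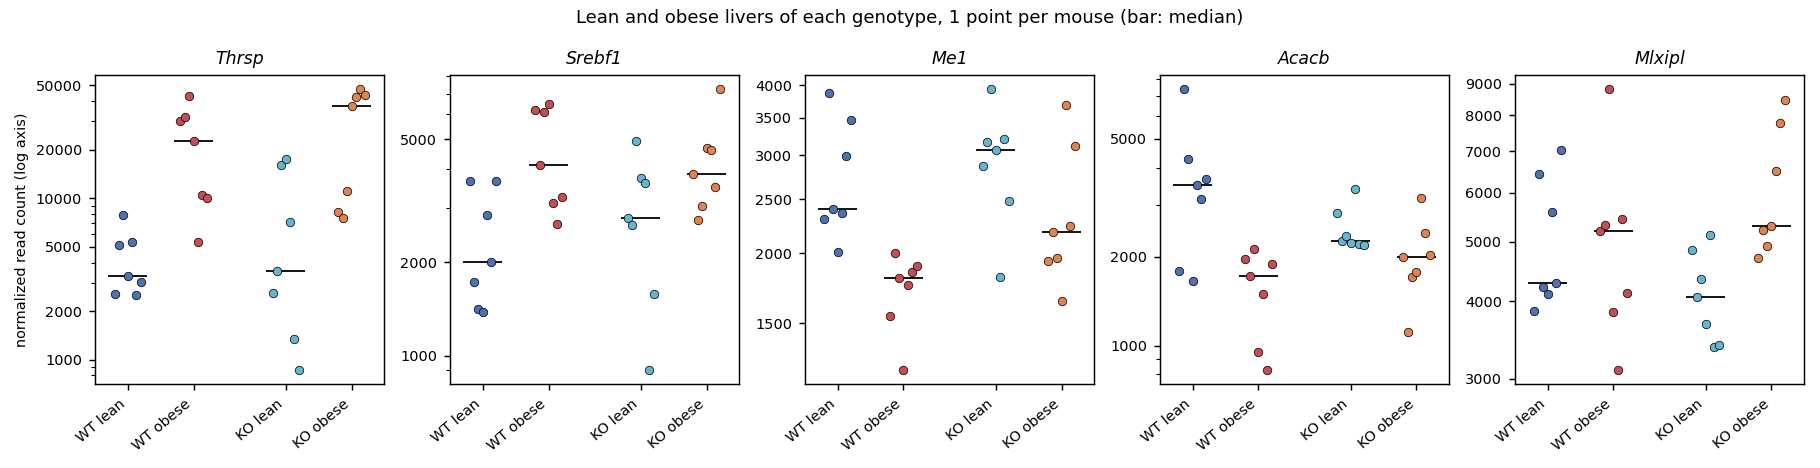
Normalized count (y axis, log scale) of 5 genes in each mouse, grouped on the x axis, with a bar at the median of 7; the WT and KO pairs come from separately scaled tables. Me1 in WT mice does not overlap between diets, and Thrsp in WT obese mice reaches 43202 against at most 7905 in WT lean.

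Around the members, 3 of 52 listed pathway genes tested rose and 8 fell in WT mice on the high fat diet. Among all genes tested 3.65% were called higher and 2.61% lower. Of the 5 desaturation and elongation genes 4 fell, among them Scd1, the stearoyl-CoA desaturase (Log2FC -2.39 ± 0.30, limma adjusted p = 0.000688), and the elongases Elovl6 (-1.59 ± 0.28) and Elovl5 (-0.99 ± 0.18). That list had a median Log2FC of -0.99. Irs1, an insulin receptor substrate, fell by 0.97 on the log2 scale. Those that rose were Pparg, an adipogenic nuclear receptor (1.62 ± 0.39), Mid1ip1, which encodes a partner of acetyl-CoA carboxylase related to Spot 14 (0.86 ± 0.22), and Slc2a2, the hepatic glucose transporter (0.47 ± 0.14). None of the 5 genes that brake malonyl-CoA and none of the 7 glycerolipid assembly genes tested was called.

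Of 8 fasting-response genes 0 rose and 2 fell, Fgf21 with a Log2FC of -1.68 ± 0.33 and Igfbp1 with -1.47 ± 0.47. The summed level of the 8 was 161924 to 260887 in WT lean and 131613 to 215789 in WT obese mice. Thrsp is also an adipose gene, and of the adipocyte markers Cfd rose (Log2FC 4.34 ± 0.38) while Fabp4, Cidec and Slc2a4 were not called. The 4 adipocyte markers in this table summed to 269 to 1462 in WT lean and 536 to 2278 in WT obese mice. In the table of KO obese and WT obese mice, which lists more genes, Adipoq was at 0 in 5 of 14 libraries, with a highest value of 32.3, Plin1 was at 0 in 9 and Lep and Retn each in 7. In bulk liver, fewer cells of a type and less RNA per cell cannot be told apart.

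In KO mice the diet raised 2 members, Thrsp and Mlxipl, and lowered none, against 12% of 14213 genes called higher and 12.1% called lower. The median Log2FC of the 10 was 0.38 against -0.00 over all genes, and 6 were above 0. Thrsp ranged from 862 to 17604 (median 3567) in KO lean and from 7494 to 47712 (median 37454) in KO obese mice. The groups overlapped, with 4 KO obese mice above all KO lean ones and the other 3 within their range. The Log2FC was 2.38 ± 0.67 (limma adjusted p = 0.0281). Mlxipl, which encodes ChREBP, ranged from 3374 to 5123 (median 4072) in KO lean and from 4702 to 8468 (median 5299) in KO obese mice. All but 2 KO obese mice stood above all KO lean ones. Its Log2FC was 0.55 ± 0.15 (limma adjusted p = 0.0247).

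Among the members that were not called in KO mice, Fasn had 1369.7 to 4867 (median 3047) normalized counts in lean and 1828 to 14806.5 (median 3601) in obese mice, with a Log2FC of 0.76 ± 0.40 (limma adjusted p = 0.206). Of the KO obese mice, 3 stood above all KO lean ones and 4 within their range. Srebf1 stood at 0.67 ± 0.31 (limma adjusted p = 0.154), Acly at 0.49 ± 0.37, Acaca at 0.27 ± 0.20, Acacb at -0.34 ± 0.18, Me1 at -0.31 ± 0.19, Pnpla3 at -0.27 ± 0.30 and Gpam at -0.08 ± 0.12.

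Of the 52 pathway genes tested 7 rose and 9 fell with diet in KO mice, against 12% of all genes called higher and 12.1% called lower. These counts lay near those shares and are not read as a change of the pathway. The lowered ones included Mlycd, the malonyl-CoA decarboxylase (Log2FC -1.07 ± 0.15), Scd1 (-2.25 ± 0.43), Elovl5 (-0.89 ± 0.18) and Mlx, the dimer partner of ChREBP (-0.46 ± 0.12). The raised ones included Slc2a2 (0.91 ± 0.16), Pparg (2.05 ± 0.37), Mid1ip1 (1.26 ± 0.29) and Pklr, liver pyruvate kinase (1.20 ± 0.30). Of the fasting-response genes 3 of 8 fell, and their summed level was 166509 to 318051 in KO lean and 143690 to 223236 in KO obese mice. Kupffer cell markers moved with this comparison: 5 of 6 tested fell, and their summed level was 7018 to 14949 in KO lean against 3912.5 to 5249.9 in KO obese mice. Of the sinusoidal endothelial markers 2 of 5 fell, and of the stellate cell markers 1 of 6. Their part in the members' values was not tested.

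The difference between the diet effects of the genotypes was tested over the 28 libraries of both tables. For 9 of the 10 members the KO effect exceeded the WT effect on the log2 scale, with a median difference of 0.60 against -0.01 over all genes. None was called by limma, and 0.00717% of 13941 genes were. Of the members, 4 had an unadjusted p under 0.05. The share of all genes at that level is not given, so this count is not read as a result about the members. Acaca differed by 0.86 ± 0.30 (limma adjusted p = 0.149) and Fasn by 1.16 ± 0.51 (limma adjusted p = 0.225). DESeq2 called these 2 higher, with adjusted p-values of 0.0597 and 0.0917, and called 2.76% of all genes higher and 930 in all. It gave no adjusted p for Pnpla3. By edgeR 0 members were called, and with the identifier number entered as a random block Acaca and Fasn both stood at an adjusted p of 0.603 in limma. Thrsp differed by 0.21 ± 0.85 and Srebf1 by -0.29 ± 0.44.

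On the lean diet the question was whether livers without ChemR23 differ before obesity. Acaca, Fasn and Mlxipl were lower in KO lean than in WT lean livers, so 3 of 10 members fell, against 8.3% of 13031 genes tested, and 0 rose, against 8%. The median Log2FC of the members was -0.53 against -0.00 over all genes, and Srebf1 was the only one not below 0 in this comparison, at 0.01 ± 0.34.

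Acaca ranged from 1485 to 3328 (median 2339) normalized counts in WT lean and from 887 to 1416 (median 1089) in KO lean mice. All 7 KO lean mice lay below every WT lean mouse, and the share of all genes without overlap is not given. The Log2FC was -0.91 ± 0.17, a 1.88-fold lower level, with an adjusted p of 0.0302 by limma. Fasn ranged from 3120.45 to 8765 (median 6289.8) in WT lean and from 1243 to 4423 (median 2767) in KO lean mice. The groups overlapped, with 4 KO lean mice below all WT lean ones. Its Log2FC was -1.25 ± 0.29 (limma adjusted p = 0.0357), a 2.38-fold lower level.

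Mlxipl ranged from 4016 to 7269 (median 4450.1) in WT lean and from 3062 to 4667 (median 3697) in KO lean mice, with 5 KO lean mice below all WT lean ones. Its Log2FC was -0.48 ± 0.15 (limma adjusted p = 0.0661). Acacb at -0.59 ± 0.26, Acly at -0.60 ± 0.27 and Pnpla3 at -1.08 ± 0.46 were not called, with limma adjusted p-values of 0.155, 0.159 and 0.147. By edgeR and DESeq2 Acacb and Pnpla3 were called lower as well, which made 5 members against 7.81% and 9.62% of genes, and with equal totals or library weights Acacb and Acly were. Pnpla3 ranged from 12.4 to 192 in WT lean and from 13.0 to 42.5 in KO lean mice. Me1 at -0.11 ± 0.17, Gpam at -0.07 ± 0.13 and Thrsp at -0.11 ± 0.58 stood near 0.

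**Figure D3:**
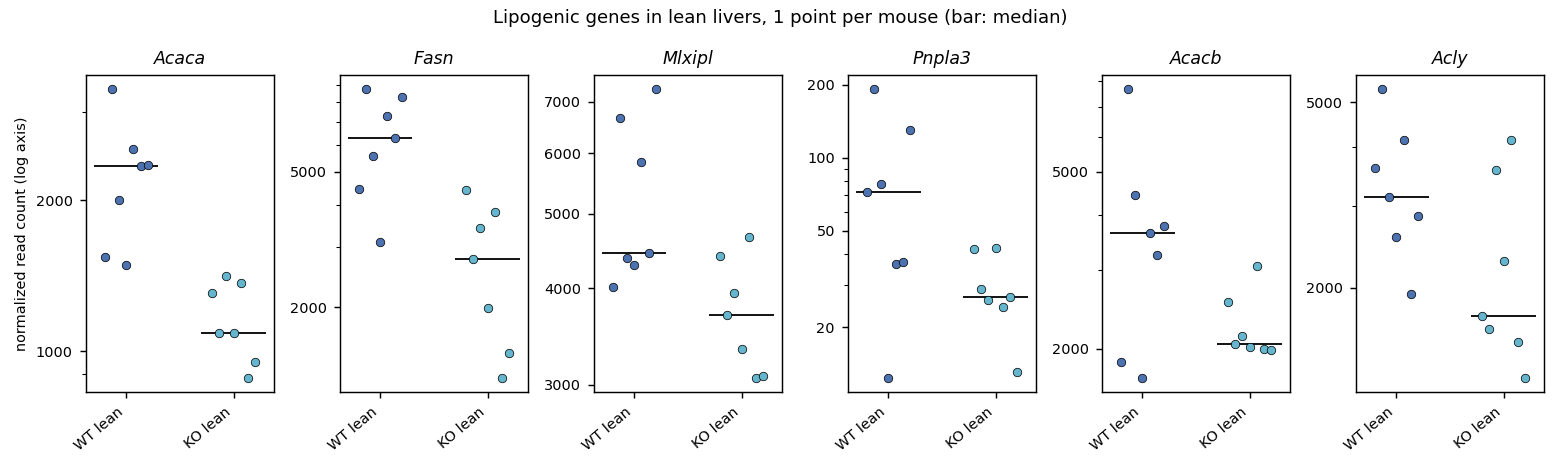
Normalized count (y axis, log scale) of 6 genes in each WT lean and KO lean mouse (x axis), with a bar at the median of 7. Acaca does not overlap between the genotypes, with at most 1416 in KO lean and at least 1485 in WT lean, and the other 5 genes overlap.

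These calls rested on few sets of mice. With the identifier number entered as a random block, the limma adjusted p was 0.138 for Acaca, 0.138 for Fasn and 0.170 for Mlxipl. Without number 9, 21 or 26 no member was called, with Acaca at 0.123, 0.106 and 0.101. Those fits called few genes of any kind, 3 of 13031 with the block and 15, 32 and 8 without those numbers. Mlxipl was no longer called without any 1 of 7 mice, WT lean 21L, 26R or 8R or KO lean 14RL, 20L, 9L or 9RL, with adjusted p-values up to 0.138. The Log2FC of Acaca stayed between -0.97 and -0.79 without those 3 numbers. Over the alternatives that kept all mice it ran more widely, from -1.03 to -0.59, and that of Fasn from -1.37 to -0.94.

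Of the 52 pathway genes tested 6 fell and 3 rose in KO lean mice, against 8.3% of all genes called lower and 8% called higher. Those counts stood near the shares and are not read as a change of the pathway. Of the 7 insulin signal genes 4 fell, Irs2 (Log2FC -1.35 ± 0.38), Trib1, which encodes a pseudokinase that restrains lipogenesis (-0.76 ± 0.23), Insr, the insulin receptor (-0.43 ± 0.14), and Irs1 (-0.54 ± 0.20). Mlycd (0.56 ± 0.16), Mlx (0.36 ± 0.11) and Usf1 (0.27 ± 0.10), an E-box factor, rose. None of the 8 fasting-response genes was called, with a summed level of 168253 to 271311 in WT lean and 151208 to 288590 in KO lean mice. All 6 Kupffer cell markers tested rose, and their summed level was 2609 to 5997 in WT lean against 6385 to 13555.5 in KO lean mice. Their part in the members' values was not tested.

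Between the obese genotypes no member was called. Of the members 0 rose and 0 fell by limma, against 0.00706% of 14162 genes in each direction, and 0 had an unadjusted p under 0.05. By edgeR and DESeq2, which called 2 and 3 genes, the members called were also 0. Acaca ranged from 1126 to 2160.1 (median 1443) in WT obese and from 1010.4 to 2379.7 (median 1197) in KO obese mice, and the difference of -0.05 ± 0.23 on the log2 scale lay within the spread between mice. Fasn had medians of 5355 and 3454 and a Log2FC of -0.09 ± 0.39. The values of the 10 members ran from -0.28 ± 0.24 for Srebf1 to 0.32 ± 0.47 for Pnpla3.

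RvE1 was given to ask whether the ligand acts on obese livers and whether it needs its receptor. In WT obese mice no member was called by limma, which called 0% of 13085 genes higher and 0% lower. No member was called by edgeR or DESeq2 either, which called 1 and 25 genes. Me1 was the 1 member with an unadjusted p under 0.05, a level at which the share of all genes is not given. Me1 ranged from 1449.6 to 2349.7 (median 2137) in WT obese and from 1925 to 4371 (median 2375) in WT obese+RvE1 mice. The groups overlapped, with 4 treated mice above all vehicle mice. The Log2FC was 0.37 ± 0.17 (limma adjusted p = 0.810). Thrsp ranged from 6362 to 50999 (median 26626) in vehicle and from 2938 to 34308 (median 7348) in treated mice, with a Log2FC of -0.99 ± 0.58 (limma adjusted p = 0.892), and 3 treated mice lay below all vehicle mice. Srebf1 stood at -0.44 ± 0.28, Mlxipl at -0.28 ± 0.18 and Acaca at -0.25 ± 0.19, and 7 members in all were below 0.

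In KO obese mice RvE1 also gave no called member by limma, which called 0% of 14207 genes higher and 0% lower. No member was called by edgeR or DESeq2 either, which called 0 and 17 genes. Pnpla3, Thrsp and Mlxipl, 3 of the 10, had an unadjusted p under 0.05. The share of all genes at that level is not given, so this count is not read as a result about the members. The median Log2FC of the 10 was -0.50 against -0.01 over all genes, and only Gpam was above 0, at 0.11 ± 0.22. Thrsp ranged from 7576 to 48157 (median 37751) in KO obese and from 1158 to 55708 (median 5423) in KO obese+RvE1 mice. Of the treated mice 6 lay below every vehicle mouse and the other, 23-2L, stood above every one of them. The Log2FC was -2.12 ± 0.72 (limma adjusted p = 0.557), and -2.69 (adjusted p = 0.128) without that mouse.

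Pnpla3 ranged from 13.6 to 54.9 (median 21.6) in KO obese and from 8.12 to 23.2 (median 12.1) in KO obese+RvE1 mice, 5 of which lay below all vehicle mice. Its Log2FC was -0.94 ± 0.29 (limma adjusted p = 0.557). Mlxipl stood at -0.43 ± 0.18, Acly at -0.87 ± 0.42, Fasn at -0.72 ± 0.54 and Acaca at -0.54 ± 0.33. Without the 3 KO obese mice of number 10, Thrsp at -3.09 ± 0.77, Acly at -1.58 ± 0.39 and Pnpla3 at -1.28 ± 0.32 were called lower with adjusted p-values of 0.0872, 0.0850 and 0.0867, 3 of 10 members against 1.14% of 14167 genes. Number 10 had the lowest KO obese means of these genes, with Thrsp at 9042 against 37751 for number 23 and 44786 for number 31. Leaving it out therefore widens the difference by construction. Without number 12, 15, 23 or 31, limma called no gene in this comparison. Number 23 alone holds mice of both groups, and there Thrsp was 37751 in the vehicle mouse and 55708 and 6322 in the treated ones. A difference between the RvE1 effects of the genotypes was called for no member by limma, edgeR or DESeq2, with 0% of 13075 genes called, 0 members at an unadjusted p under 0.05 and Thrsp at -1.12 ± 0.99.

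Within groups, much of the spread of some of these genes lay between identifier numbers. Of the sum of squares of log2 values about the group means, 81.4% lay between numbers for Acly, 80.8% for Thrsp, 68.6% for Srebf1, 62.2% for Fasn and 58.5% for Acaca, beside a median of 47.6% over 12764 genes. Gpam at 48.4%, Me1 at 47.4%, Acacb at 44.6%, Pnpla3 at 40.5% and Mlxipl at 33.8% stood near or below that median. Small sets of mice give some such share even without an effect of the number. The pooled within-group SD was 1.36 for Thrsp and 0.32 for the median gene on the log2 scale. What the number marks is not stated. Each group holds several numbers, and except for number 23 no number occurs in more than a single group.

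Thrsp had the largest pooled SD of the members and is described by number. In WT obese mice the 3 of number 6 had 6362 to 12306 normalized counts, against 26626 to 50999 in the 3 of number 27 and 35417 in the mouse of number 22. In WT obese+RvE1 mice the 4 of number 7 had 2938 to 7348 and the 3 of number 30 had 18503 to 34308. In KO obese mice the 3 of number 10 had 7576 to 11155, against 37751 in the mouse of number 23 and 42554 to 48157 in the 3 of number 31. Each obese group thus held a low and a high set of mice that did not overlap, except that KO obese+RvE1 had 6 low mice and 1 high one. Among KO lean mice number 9 had 782 to 1226, number 14 had 2338 to 3238 and number 20 had 6495 to 15962.5. The depth of the sets overlapped, with 21193827 to 32996637 reads for number 10 and 22936215 to 43841120 for number 31.

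**Figure D4:**
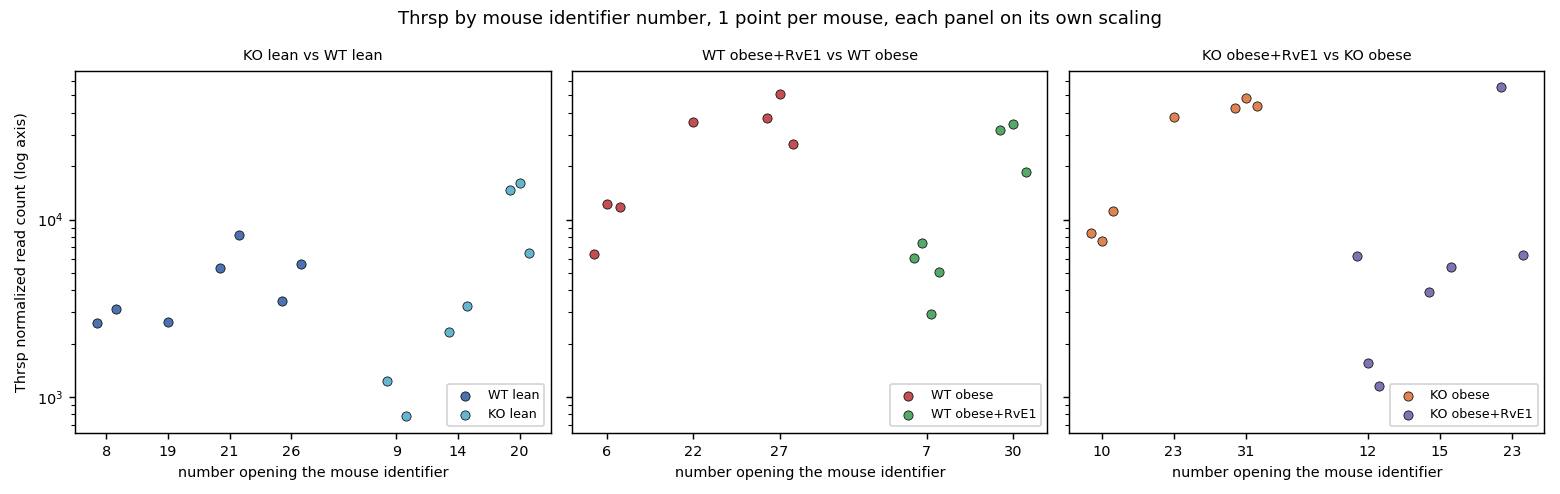
Thrsp normalized count (y axis, log scale) of each of 42 mice by the number that opens its identifier (x axis), colored by group, with each panel scaled on its own table. In WT obese mice number 6 ends at 12306 and number 27 begins at 26626, and 1 KO obese+RvE1 mouse stands at 55708.

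The same split passed into the diet results. Without number 27 the Thrsp difference of WT mice was 1.55 ± 0.41 (limma adjusted p = 0.103). Without number 10 the diet effect in KO mice covered 5 members, Thrsp (3.35 ± 0.69), Fasn (1.40 ± 0.39), Acly (1.20 ± 0.30), Mlxipl (0.76 ± 0.16) and Acaca (0.63 ± 0.19), all higher, against 7.09% of 14175 genes called higher. Number 10 had the lowest KO obese mean of each of these 5 genes, so leaving it out raises the difference by construction. Without number 9 or number 31 neither Thrsp nor Mlxipl was called in that comparison, with Thrsp at 1.60 ± 0.60 and 1.60 ± 0.77. Without number 20 Thrsp was called lower in KO lean than in WT lean mice (-1.31 ± 0.39, limma adjusted p = 0.0446), against -0.11 ± 0.58 with all mice. That fit called 12.1% of 13031 genes lower. Without number 9 the Log2FC of Thrsp was 0.67 ± 0.46. Among KO lean mice number 20 had the highest Thrsp mean, 12353 against 2788 for number 14 and 1004 for number 9. Leaving out number 20 therefore lowers the difference, and leaving out number 9 raises it, by construction.

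The members rose and fell together from mouse to mouse. All 45 pairs of members had a positive Pearson's r over 42 mice after the group means were taken out, with a median of 0.51. Acaca and Fasn had r = 0.94, Acly and Thrsp 0.85, Acaca and Acacb 0.80, and Fasn and Acly 0.80. Thrsp and Gpam were the least alike at 0.19, and Mlxipl and Gpam stood at 0.23. These mice share libraries with every group contrast and many share an identifier number, so the values describe these livers and carry no test. The same values are not given for other pairs of genes, so they are not shown to be particular to the members.

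**Figure D5:**
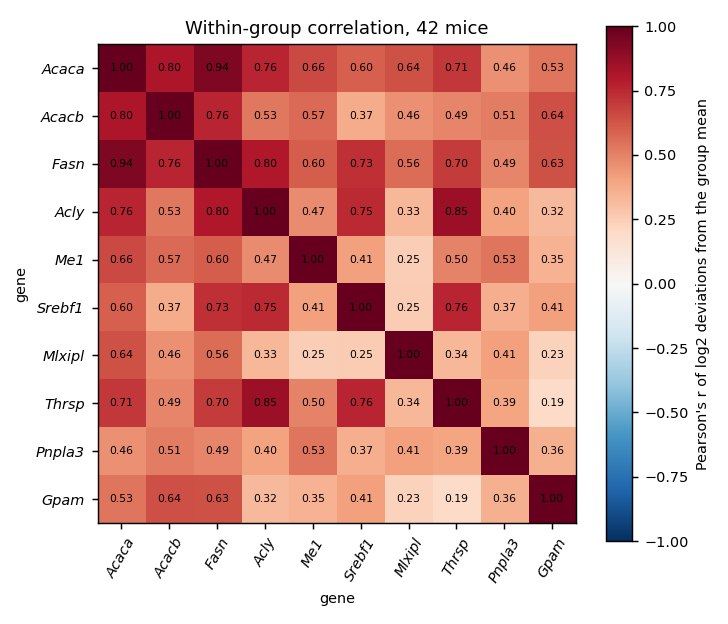
Pearson's r between members (both axes) of log2 deviations from the group mean over 42 mice, on a color scale from -1 to 1. All 45 pairs are above 0, from 0.19 for Thrsp and Gpam to 0.94 for Acaca and Fasn.

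Over 12764 genes tested in 3 tables that share no library, the genes most like the mean of the members from mouse to mouse were Gbe1, the glycogen branching enzyme, with a mean Spearman's rho of 0.85 over the 3 tables, Acat2, a cytosolic acetoacetyl-CoA thiolase, at 0.83, Rdh11, a retinol dehydrogenase, at 0.82, Cyb5r3, a cytochrome b5 reductase, at 0.82, and Trak1, at 0.81. Among the members the mean rho with that average was 0.94 for Acaca and for Fasn, 0.75 for Srebf1 and Thrsp and 0.45 for Gpam. Mlxipl had 0.93 in lean mice and -0.02 in the WT obese mice with and without RvE1.

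The log2 ratio of Acaca to Acacb, the cytosolic against the mitochondrial carboxylase, does not depend on library scaling. It was -0.65 ± 0.39 (SD, n = 7) in WT lean and -0.10 ± 0.43 in WT obese mice, a difference of 0.54 (exact permutation test, two-sided, p = 0.0344, adjusted over 6 comparisons 0.0699). In KO mice it was -0.96 ± 0.20 in lean and -0.35 ± 0.38 in obese mice, a difference of 0.62 (exact permutation p = 0.00175, adjusted 0.0105). The groups overlapped in both genotypes. With RvE1 it was -0.59 ± 0.32 in WT mice against -0.10 ± 0.43 with vehicle, a difference of -0.49 (exact permutation p = 0.0350, adjusted 0.0699). In KO mice RvE1 gave a difference of -0.08 (exact permutation p = 0.659). Whether the RvE1 or diet effect on the ratio differed between genotypes was not tested. The WT diet and WT RvE1 differences share the same WT obese mice, so they are not independent. The genotypes differed by -0.32 on the lean diet (exact permutation p = 0.0804, adjusted 0.121) and by -0.25 on the high fat diet (exact permutation p = 0.275). The smallest p that 7 against 7 mice allow is 0.000583. Leaving out single mice took the adjusted p of the WT diet difference up to 0.121 and that of the WT RvE1 difference up to 0.121, and the KO diet difference stayed at or below 0.0245. These tests treat mice as independent, while mice that share an identifier number resembled each other. With the mean of each number as the unit, an alternative chosen after seeing the data, the diet differences were 0.44 in WT mice (3 against 4 numbers, exact permutation p = 0.200) and 0.59 in KO mice (3 against 3 numbers, exact permutation p = 0.10, the smallest that this design allows). The WT RvE1 difference was -0.41 (2 against 3 numbers, exact permutation p = 0.200). Without single numbers the adjusted exact permutation p reached 0.359 for WT diet and 0.400 for WT RvE1, and 0.0699 for KO diet.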

How the data were processed

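Liver RNA was measured in 42 mice, 7 in each of 6 groups taken from the labels. The authors aligned read pairs to mm10 (Bowtie2), counted pairs with both ends mapped for each gene (featureCounts) and scaled each of 6 tables on its own with size factors from DESeq2. Tool versions, the annotation and the strand setting: not given in the sources used here. The deposited signal values are these normalized counts. The deposited log2 fold changes, their standard errors, the baseMean and the p-value columns hold the authors' own comparisons and were not used. All values were whole reads within 0.1 reads once divided by the worth of 1 read. Reads per library were 15992525 to 43841120, which limits the precision of low genes such as Pnpla3.

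Each table was tested with limma 3.58.1 (lmFit, eBayes with trend, R 4.3.3) on log2(normalized count + 1), for genes with a mean of at least 5, two-sided and BH-adjusted over all of them, with calls at an adjusted p under 0.1. Interactions used 4 group means over 28 libraries. The Acaca to Acacb ratio used exact permutation tests. All members were named. Other pathway genes were named by the smallest adjusted p, up to 4 per direction and comparison, and likeness by mean Spearman's rho. Alternatives were pseudocounts of 0.5 and 4, no filter, TMM, equal totals, a length and GC correction (loess span 0.3), library weights, a random block for the identifier number, a stricter adjusted p of 0.05, a fold change above 1.5, edgeR 4.0.16 and DESeq2 1.42.0 on the recovered reads, and leaving out mice or identifier numbers. For the ratio, leaving out identifier numbers and using their means were added after seeing the data. Gene models came from GENCODE M21, matched by symbol, and promoter sequences from RefSeq (GRCm38.p6). The fit was tested on simulated data. The members and lists were chosen with earlier results of these data known. Gpat3, Gpat4, Tf and Adgre1 of the lists were not tested under those names.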

Additional observations from a re-analysis of the deposited data

Results flagged for a closer look

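Dixon's critical gap for 7 values is 0.568 of the group's range. In 9 of 60 combinations of gene and group, 1 mouse stood apart from the other 6 by more than that gap. The gaps were taken on normalized counts and not on the log2 scale of the tests. The gap marks about 1 in 20 only for normally distributed values, so the 9 are a description and are not set against chance. In KO obese+RvE1, mouse 23-2L had 55708 normalized counts of Thrsp against 6322 in the next mouse, 11923 of Srebf1 against 4030.4 and 5524 of Acly against 2420.2. In WT obese+RvE1, mouse 30RL had 11665 of Fasn against 4899 in the next mouse, and 7770.5 of Acly against 3762. In KO obese, mouse 31R had 7334 of Srebf1 against 4707 and 3329 of Gpam against 2571. Mouse 27-2R had 10430.2 of Mlxipl against 6378 in WT obese, and mouse 26L had 1813 of Gpam against 2506 in WT lean. Leaving out any single mouse gave no called member in either RvE1 comparison.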

How the results depend on the processing

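Members called with diet in WT mice were 4. They were 2 (Thrsp and Me1) at an adjusted p under 0.05 or with the identifier number entered as a random block. They were 3 to 5 without single mice and 1 (Acaca) to 5 without single identifier numbers, with 1 without number 27 and 2 without number 21. Of all genes 6.27% were called in the main fit, 3.3% at 0.05 and 1.99% with the block. Without number 27 and number 21 the shares were 2.24% and 3.43%. In KO mice the members called with diet were 2, 1 (Thrsp) with a fold change above 1.5, and 5 with library weights (which called 40.4% of all genes there). They were 2 to 3 without single mice, 0 without number 9, 1 (Acacb) without number 31 and 5 without number 10. Of all genes 24.1% were called in the main fit, 10.8% without number 9, 5.85% without number 31 and 14% without number 10. For KO lean vs WT lean the members called were 3 (8.3% of all genes lower). They were 5 with equal totals, library weights, edgeR or DESeq2 (13.5%, 17.1%, 7.81% and 9.62% of all genes lower). With the identifier number entered as a random block they were 0, in a fit that called 3 of 13031 genes. Without single mice they were 2 to 5, with 5 without WT lean 26L or KO lean 20R (7.23% and 14.1% of all genes lower). They were 0 without number 9, 21 or 26 and 5 without number 20 (12.1% of all genes lower). The genes called over all 13031 fell from 2123 to 15, 32 and 8 without number 9, 21 and 26. These counts of members thus moved with those of all genes. KO obese+RvE1 vs KO obese gave 0, and 3 without number 10. The diet by genotype interaction gave 0, 1 (Acaca) with library weights or without KO lean 20R, and 2 with DESeq2, against 18.4%, 13.3% and 6.67% of all genes. The other comparisons gave 0 under every alternative run. In no alternative did a called member change direction. The Acaca to Acacb difference ran from 0.45 to 0.63 for WT diet, 0.51 to 0.70 for KO diet, -0.41 to -0.25 for KO lean vs WT lean, -0.58 to -0.40 for RvE1 in WT mice, -0.35 to -0.15 for KO obese vs WT obese and -0.19 to 0.02 for RvE1 in KO mice when single mice were left out. WT diet was no longer called without WT lean 21L, 21R or 8R or WT obese 27-2L, 27RL or 6RL. RvE1 in WT mice was no longer called without WT obese 27-2L, 27RL or 6RL or WT obese+RvE1 30RL, 7-2L, 7L or 7RL. KO lean vs WT lean was called without KO lean 20-2L or WT lean 21L or 21R. The cause of these changes was not tested. Without single identifier numbers, an alternative chosen after seeing the data, the ratio difference ran from 0.33 to 0.69 for WT diet (no longer called without 8, 21 or 27), 0.46 to 0.74 for KO diet, -0.53 (called, without 21) to -0.21 for KO lean vs WT lean and -0.66 to -0.27 for RvE1 in WT mice (no longer called without 7 or 27). With means of identifier numbers as the units, the WT diet, KO diet and WT RvE1 differences were 0.44, 0.59 and -0.41 and none was called. No paired analysis was possible because no 2 groups share more than 1 identifier number, 23 in KO obese and KO obese+RvE1.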

Other observations

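The elongase Elovl6 was chosen after its values were seen. It showed low and high sets of mice by identifier number like those of Thrsp. In KO obese mice Elovl6 was 1731 to 2853 normalized counts for number 10 and 6303 to 7588 for number 31. In WT obese+RvE1 mice it was 1425 to 2237 for number 7 and 3426 to 7425 for number 30. These values are a description and were not tested.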
